A study of Mus musculus with 7 samples.

Results

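The mouse microRNAs numbered miR-680 to miR-721 were measured in the edge of skin wounds with and without a restricted blood supply. Every assay with the mouse prefix whose number lies between those of miR-680 and miR-721, ends included, was taken, which gave 30 of the 306 miRNA assays on the plate. Assays were picked by name alone, but the range of numbers was set with earlier results of these data known. Wound edge tissue of C57Bl6 mice was collected on day 3. There were 4 non-ischemic samples and 3 ischemic ones, the ischemic wounds having been made in a bipedicle flap, which is skin raised so that it stays attached at its ends alone. Both groups share strain, tissue and time, and age, sex and the number of animals are not given in the sources used here, so p-values reflect sample-to-sample spread that may be technical in part.

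These numbers were given to mouse small RNAs found in cloning and sequencing screens. A miRNA proper is cut from a hairpin by the enzymes Drosha and Dicer, and some of the RNAs numbered in those screens were later recognised as pieces of other RNAs. miR-709 is known in the mouse as a miRNA that is also active in the nucleus, where it acts on the primary transcript of miR-15a and miR-16-1, whereas the RNA read as miR-720 is known as a fragment of a threonine tRNA. A stem-loop primer, as used here, pairs with the 3′ end of a small RNA, and the assay does not by itself show which longer RNA that end came from.

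A mature sequence from RefSeq (GRCm38.p6) was found for 23 of the 30, and the sequences of the other 7 (miR-684, miR-694, miR-696, miR-699, miR-709, miR-715 and miR-720) are not shown. The following belong to the assays that have a sequence and were detected, as defined below, in at least 1 sample, with miR-721 added for its seed. The assays with the most signal, miR-709, miR-720 and miR-699, are among those without a sequence. Capitals mark the seed, bases 2 to 8, through which a miRNA pairs with its targets. For miR-698 both arms are shown, since the assay name does not say which arm was read.
miR-690: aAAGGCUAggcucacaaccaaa
miR-706: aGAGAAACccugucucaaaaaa
miR-692: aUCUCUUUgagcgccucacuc
miR-698-5p: uGUGGGUGggacagggauguu
miR-698-3p: cAUUCUCGuuuccuucccu
miR-682: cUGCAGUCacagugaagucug
miR-721: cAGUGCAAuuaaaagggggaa

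No seed was shared among the 23 assays with a sequence, whose 28 mature sequences held 28 different seeds. The seed of miR-721 is that of the miR-130 and miR-301 family (6 other mature mouse miRNAs in RefSeq carry it). Of the assays on the plate for that family, miR-130a had a threshold cycle (Ct) below 35 in 2 samples, and miR-130b and miR-301 in 0. The set ran from 35% G and C in miR-701-3p to 81% in miR-718, and miR-706, at 36.4%, ends in 6 A bases.

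Most of the sequences lie inside genes. Of the 23, 18 overlapped the span of a protein-coding gene at 1 or more loci and 17 lay on the same strand as that gene. miR-690 (chr16:28599940-28599961, minus strand) lies within Fgf12, miR-706 (chr6:120034290-120034311, minus strand) within the kinase gene Wnk1, and miR-698-3p (chr4:124743852-124743870, plus strand) within the phosphatase gene Inpp5b. Exons and introns were not told apart. miR-692 has 3 loci with the same mature sequence. One (chr13:74407121-74407141, plus strand) overlaps Ftl1-ps1 and another (chr4:125504805-125504825, plus strand) overlaps Ftl2-ps and Grik3. Ftl1-ps1 and Ftl2-ps are annotated as pseudogenes, and their symbols are those of ferritin light chain, a subunit of the protein shell that stores iron. The remaining locus (chr17:6895259-6895279, minus strand) overlapped no other gene. The miR-682 sequence (chr13:75645119-75645139, plus strand) overlaps the pseudogene Gm4149. An assay cannot tell the loci of miR-692 apart, nor those of miR-680 and miR-683, which also have more than 1.

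The set split into a few abundant RNAs and many with no signal. The Ct is the PCR cycle at which product passes the threshold, so a lower Ct is a higher level, and 40 stands for no product. No product appeared in any sample for 14 of the 30 assays: miR-681, miR-683, miR-686, miR-691, miR-693, miR-695, miR-697, miR-707, miR-710, miR-711, miR-713, miR-715, miR-717 and miR-718. Among these, miR-711 lies within Col7a1, which encodes the collagen of the fibrils that anchor epidermis to dermis. A Ct below 35, taken as detection, was reached by 8 assays in at least 1 sample and by 4 in all 7 samples, with 5 to 7 of the 30 detected per sample.

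**Figure D1:**
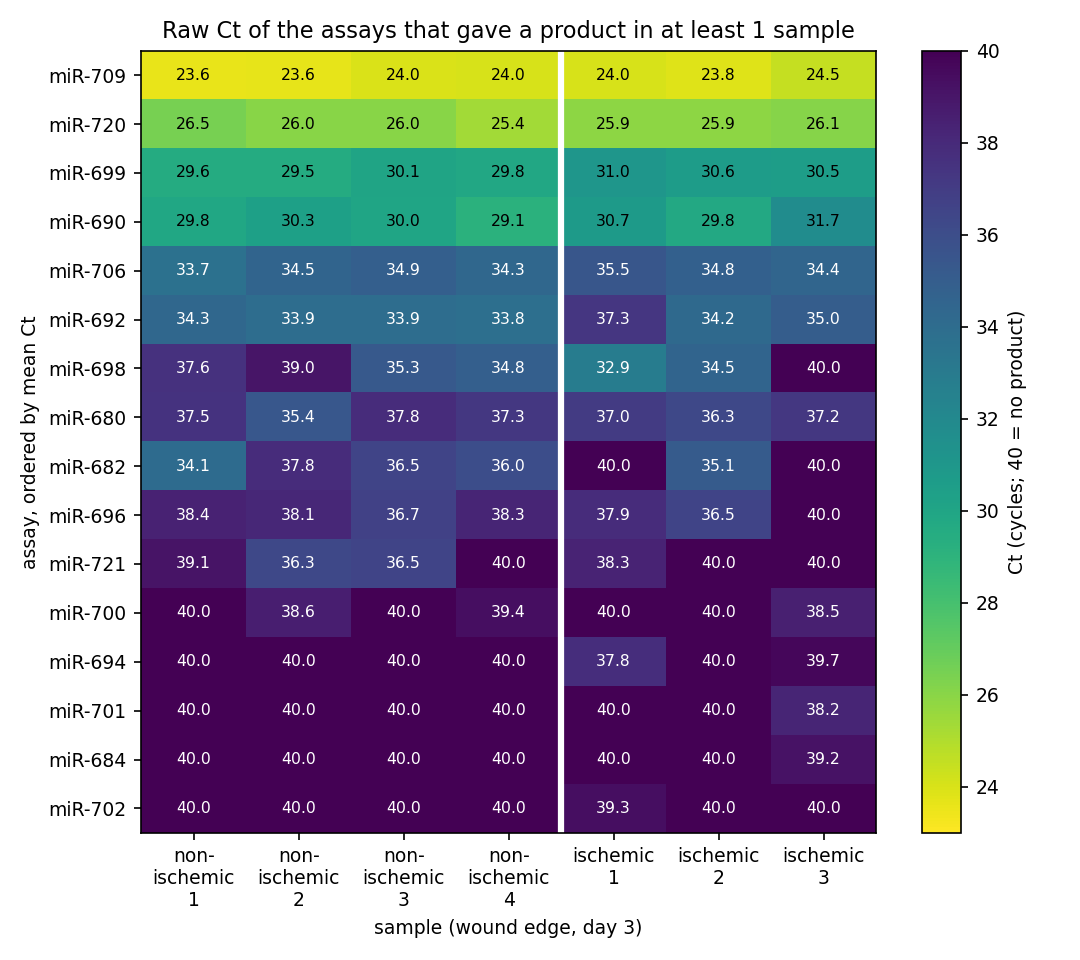
Raw Ct in cycles of the 16 assays with a product in at least 1 sample (rows, ordered by mean Ct) in the 7 samples (columns), where 40 means no product. miR-709 and miR-720 stay below a Ct of 27 in every sample, and 8 of the 16 rows hold no Ct below 35.

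Detection of the set depended on how late a Ct was accepted. At a Ct below 35, 26.7% of the 30 assays and 39.9% of the 276 other miRNAs were detected in at least 1 sample, and 13.3% and 26.1% in all 7. At a Ct below 30 the set held 2 of 30 assays (6.7%) in all 7 samples, against 8 of 276 (2.9%). These shares are descriptions of these 7 samples and were not tested.

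**Figure D2:**
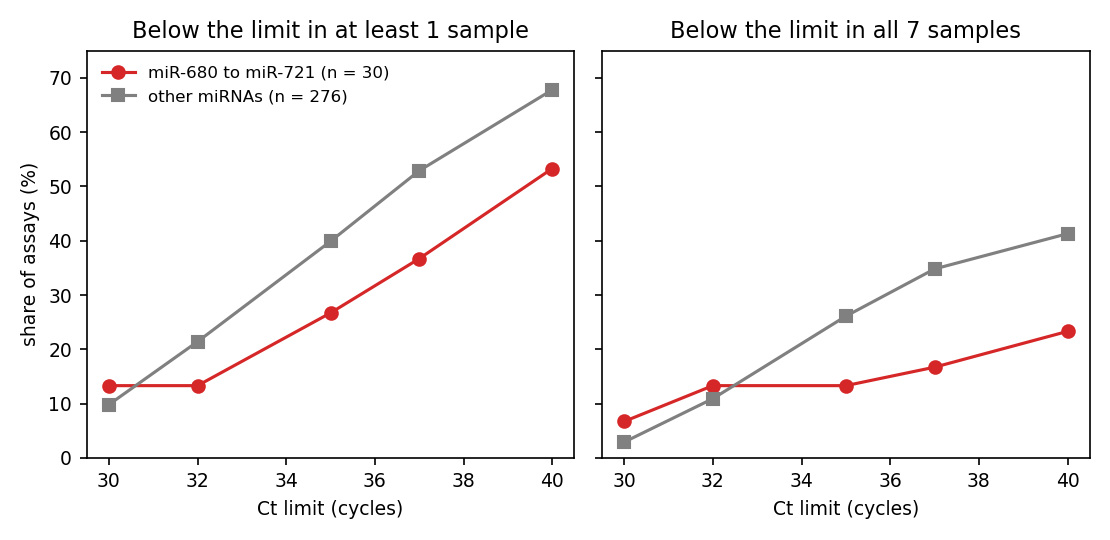
Share of assays in percent with a Ct below the limit on the x axis (cycles), in at least 1 sample (left) and in all 7 samples (right), for the 30 assays from miR-680 to miR-721 and for the 276 other miRNAs. At a limit of 35 the lines stand at 26.7% and 39.9% on the left and at 13.3% and 26.1% on the right.

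miR-709 and miR-720 gave the strongest signals. The Ct of miR-709 was 23.6, 23.6, 24.0 and 24.0 in non-ischemic samples 1 to 4 and 24.0, 23.8 and 24.5 in ischemic samples 1 to 3. That of miR-720 was 26.5, 26.0, 26.0 and 25.4 in the former and 25.9, 25.9 and 26.1 in the latter. In order of Ct among the 306 miRNAs they stood 2nd and 3rd in every sample except ischemic sample 3, where they stood 1st and 2nd. An order of Ct across assays also reflects the efficiency of each assay.

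miR-699 and miR-690 formed a second level. The Ct of miR-699 ran from 29.5 to 31.05 and that of miR-690 from 29.1 to 31.75, a distance of several cycles from miR-720. Over the 7 samples their mean Ct values were 30.16 and 30.22, which were not compared by a test. miR-706 (mean Ct 34.6, detected in 6 samples), miR-692 (34.6, in 5), miR-698 (36.3, in 3) and miR-682 (37.1, in 1) lay at or beyond the detection limit.

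Each Ct was set against the Ct of 5S rRNA in the same sample, which ran from 14.46 to 14.83 (exact permutation p = 0.257 between groups, two-sided, n = 4 and 3). With 35 splits the smallest p this permutation test can give is 0.0286. A test for a difference, with so few samples, cannot show that 5S rRNA was equal between groups. The level is the 5S rRNA Ct minus the assay Ct, a log2 scale if every cycle doubles the product, and higher values are higher levels. With this reference an assay without any product still moves with 5S rRNA, from -25.54 to -25.17, and its group difference is -0.12. In the authors' deposited table the fold of ischemic over non-ischemic is accordingly 0.916 for each of the 14 assays without product.

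Ischemic sample 3 stood apart from the other samples and is shown with each result. Across the 76 miRNAs detected in all samples, which are not independent replicates, its correlation with the other samples was 0.756 to 0.83, against 0.908 to 0.977 among the rest. There the 3 leukocyte miRNAs (miR-223 with both arms of miR-142) lay on average at -4.36 log2 units from the non-ischemic mean, where non-ischemic samples ran from -0.73 to 0.72, and the 3 striated muscle miRNAs by 2.39 (-0.20 to 0.16). The keratinocyte pair was at -0.19 in that sample and at -0.98 and -1.03 in ischemic samples 1 and 2 (non-ischemic -0.96 to 0.48). Within this pair the ischemic minus non-ischemic difference was -1.41 for miR-203 and -0.05 for miR-205. The erythroid pair was at 2.97, 2.23 and 2.58 in ischemic samples 1 to 3 (-1.31 to 1.08). The number of marker miRNAs with a Ct below 35 in all 7 samples was 1 of 3 for leukocytes, 3 of 3 for striated muscle, 1 of 2 for keratinocytes and 0 of 2 for red cells. The part of these cell types in the values below was not tested, and in tissue RNA fewer cells of a type and less RNA per cell cannot be told apart.

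The question of the series, which miRNAs differ in the ischemic wound edge, was put with limma to 103 miRNAs that reached detection in 3 or more samples, of which 7 belong to the set. None of the 7 passed an adjusted p of 0.05, and neither did any of the 103 (0%), while 19 of the 103 (18.4%) had an unadjusted p under 0.05. In the set this was reached by 2 of 7, miR-699 and miR-692, both lower in ischemic samples, where the share of all tested miRNAs with such a p and a lower mean was 13.6%. The mean was lower in ischemic samples for 6 of the 7, against 76.7% of all tested miRNAs, and the median difference was -0.68 against -0.35. The groups did not overlap for 3 of the 7 (miR-692, miR-699 and miR-709), all lower in ischemic samples, against 12.6% of all tested. miR-692 and miR-706 were detected in only 1 and 2 ischemic samples, and their 4 non-ischemic samples alone met the filter. Both entered the counts through the group where their level was higher. The counts and the median difference thus describe the assays that met the filter. They are not support for a lower level of the whole set.

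**Figure D3:**
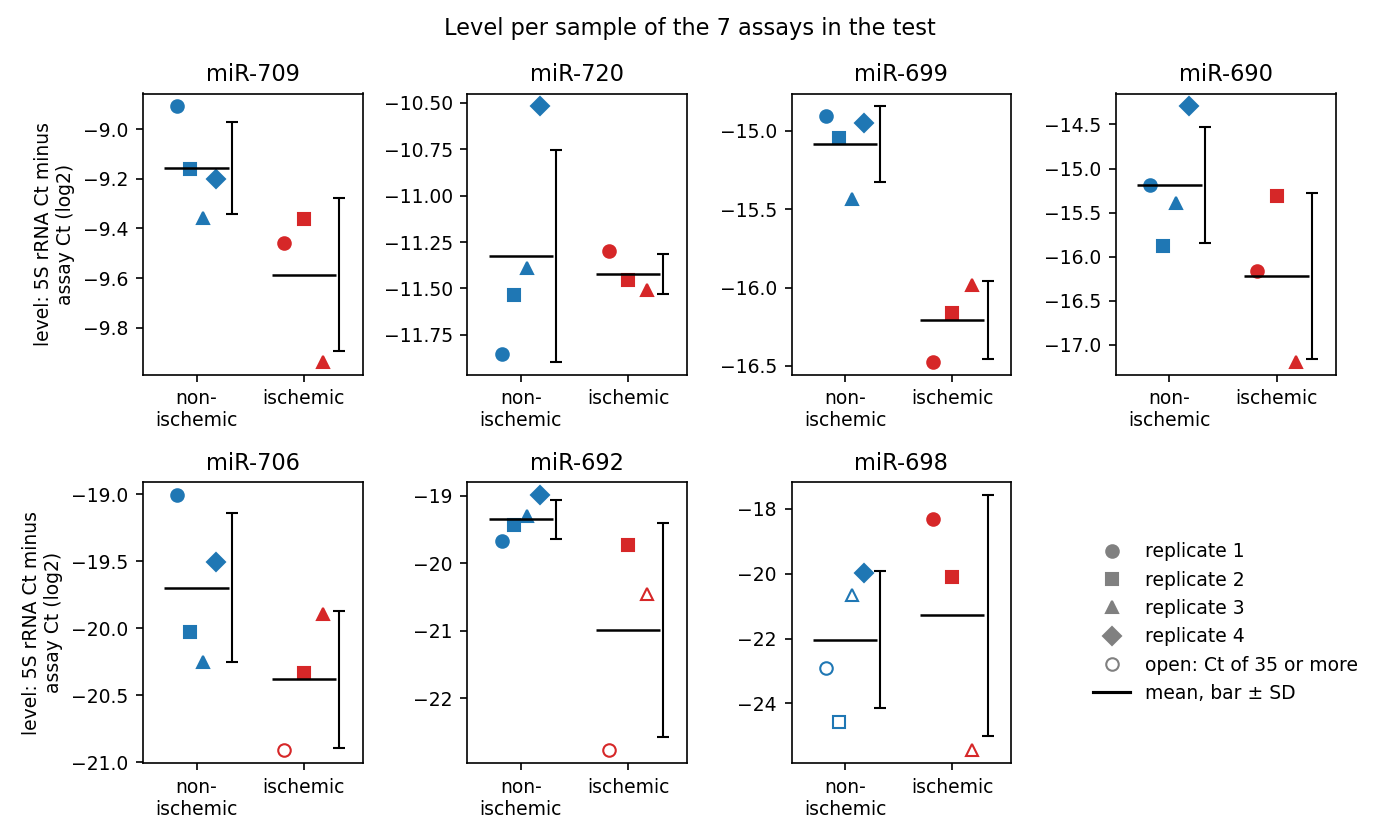
Level per sample (5S rRNA Ct minus assay Ct, log2) of the 7 tested assays in 4 non-ischemic and 3 ischemic samples, with the mean as a line, the SD as a bar and open symbols for a Ct of 35 or more. The groups of miR-699 are 0.55 apart, those of miR-692 and miR-709 nearly touch, and the other 4 overlap.

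miR-699 had the clearest separation of the set. Its level was -14.90, -15.05, -15.44 and -14.95 in non-ischemic samples 1 to 4 and -16.47, -16.16 and -15.99 in ischemic samples 1 to 3. All 3 ischemic samples lay below all 4 non-ischemic ones, with 0.55 log2 units between the groups. The mean was -15.09 ± 0.24 (SD, n = 4) against -16.21 ± 0.25 (SD, n = 3), a difference of -1.12 ± 0.34 (SE), or 2.18-fold lower, with a 95% confidence interval of -1.90 to -0.35. By limma the unadjusted p was 0.00992, the fifth smallest of 103, and the adjusted p was 0.189. Ischemic sample 3 deviated least of the ischemic samples (-0.90), and without it the difference was -1.23 (adjusted p = 0.0685 in limma). Relative to the median of all tested miRNAs the difference was -0.77.

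miR-692, the RNA with the seed UCUCUUU shown above, had the largest difference of the 7 tested assays and rested on 1 sample for its size. Its level was -19.67, -19.43, -19.30 and -18.98 in non-ischemic samples 1 to 4 and -22.77, -19.73 and -20.46 in ischemic samples 1 to 3. Every ischemic sample was below every non-ischemic one, but ischemic sample 2 only by 0.0565 from the nearest. The Ct was 35 or more in ischemic samples 1 and 3 (37.3 and 35.01). The difference was -1.64 ± 0.67 (SE, 95% confidence interval -3.16 to -0.11, unadjusted p = 0.0381, adjusted p = 0.219 in limma). Without ischemic sample 1 it was -0.75 (adjusted p = 0.502), without ischemic sample 3 it was -1.90 (0.155), and with every late Ct set to 35 it was -0.86 (0.253, all in limma).

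miR-690, known in the mouse as a miRNA carried in exosomes of alternatively activated macrophages, was lower on average without separating the groups. Its level was -15.18, -15.87, -15.39 and -14.29 in non-ischemic samples 1 to 4 and -16.16, -15.31 and -17.19 in ischemic samples 1 to 3. Ischemic sample 2 lay within the non-ischemic range and the other 2 below it. The difference was -1.04 ± 0.55 (SE, 95% confidence interval -2.29 to 0.22, adjusted p = 0.388 in limma). It was -0.55 without ischemic sample 3, the lowest of all (adjusted p = 0.604), and -1.49 without ischemic sample 2 (0.260, both in limma). From its non-ischemic mean miR-690 deviated by -0.97, -0.12 and -2.01 in ischemic samples 1 to 3. The leukocyte miRNAs deviated on average by 0.25, 0.38 and -4.36 in the same samples, and a link between these values was not tested.

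miR-709 had a small difference between groups. Its level was -8.91, -9.16, -9.36 and -9.20 in non-ischemic samples 1 to 4 and -9.46, -9.36 and -9.94 in ischemic samples 1 to 3. The groups touched, with 0.0036 log2 units between non-ischemic sample 3 and ischemic sample 2. The difference was -0.43 ± 0.34 (SE, 95% confidence interval -1.21 to 0.35, adjusted p = 0.620 in limma), or -0.08 once that median is taken off. It was -0.25 without ischemic sample 3 (adjusted p = 0.697 in limma), and it turned to 0.39 under quantile normalization.

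miR-720 showed no difference beyond the spread between samples. Its level was -11.85, -11.54, -11.39 and -10.52 in non-ischemic samples 1 to 4 and -11.30, -11.46 and -11.51 in ischemic samples 1 to 3. The ischemic values lay inside the non-ischemic range, and the SD was 0.11 in the ischemic and 0.57 in the non-ischemic group, with non-ischemic sample 4 the highest. The difference was -0.10 ± 0.41 (SE, 95% confidence interval -1.02 to 0.82, adjusted p = 0.935 in limma). Its sign changed under global mean, global median and quantile normalization (0.24, 0.26 and 0.61) and on raw Ct without normalization (0.025). Against the mean of the snoRNA assays the difference stayed at -0.25, so the data set no direction for miR-720.

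miR-706, which carries the run of A bases shown above, lay close to the detection limit in all samples. Its level was -19.00, -20.02, -20.25 and -19.50 in non-ischemic samples 1 to 4 and -20.91, -20.33 and -19.89 in ischemic samples 1 to 3. Ischemic sample 3 lay within the non-ischemic range and the other 2 below it. The difference was -0.68 ± 0.44 (SE, 95% confidence interval -1.69 to 0.32, adjusted p = 0.475 in limma). Without ischemic sample 3 it was -0.93 (adjusted p = 0.253 in limma) and the groups no longer overlapped.

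miR-698 was the only tested assay of the set with a higher mean in ischemic samples, and its values spread over 7.14 log2 units. Its Ct was 37.6, 39.0, 35.3 and 34.8 in non-ischemic samples 1 to 4 and 32.9 and 34.5 in ischemic samples 1 and 2, with no product in ischemic sample 3. The highest and the lowest level of the 7 samples therefore both stood in the ischemic group. The difference was 0.75 ± 1.68 (SE, 95% confidence interval -3.07 to 4.57, adjusted p = 0.836 in limma). It was 2.83 without ischemic sample 3 (adjusted p = 0.198 in limma), -0.74 with ischemic sample 1 left out and -0.096 with non-ischemic sample 2 left out. The filter was met by 1 non-ischemic sample (sample 4) and 2 ischemic samples (samples 1 and 2), so with any of these left out it was no longer met. In the authors' deposited table, which divides the arithmetic means of the linear ratios, the fold of ischemic over non-ischemic was 3.08 for miR-698, where the difference in mean log2 level corresponds to 1.68-fold. For miR-699 the table gives 0.459, for miR-692 0.435, for miR-690 0.514, for miR-706 0.613, for miR-709 0.749 and for miR-720 0.879.

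**Figure D4:**
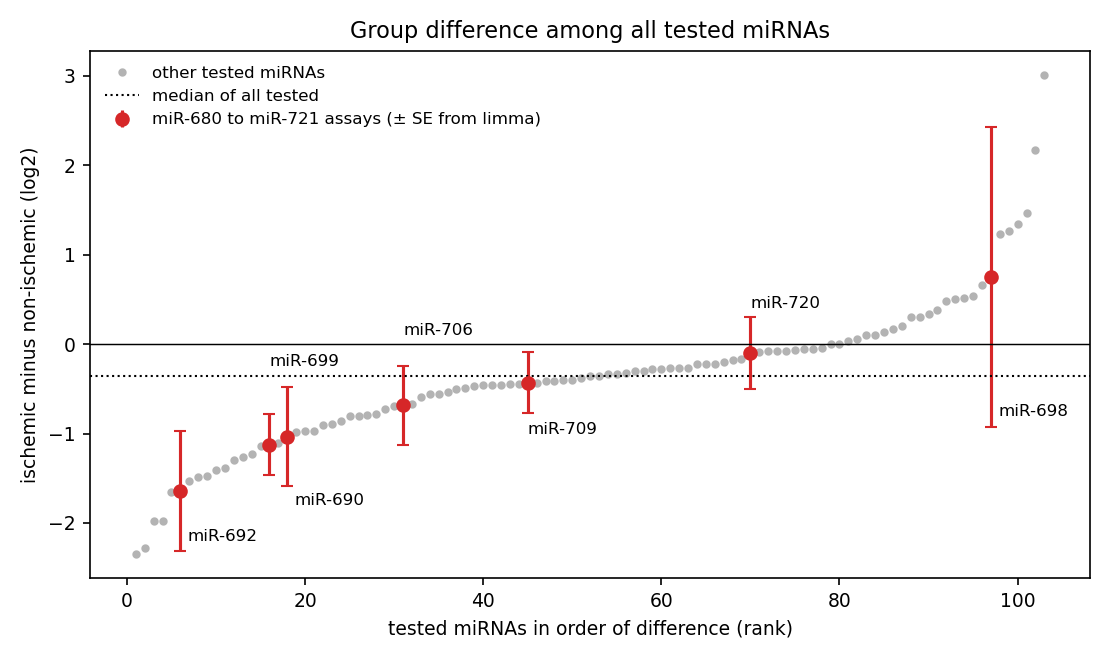
Difference in level, ischemic minus non-ischemic (log2, y axis), of the 103 tested miRNAs in order of difference (rank, x axis), with the 7 assays of the set in red and their SE from limma. They spread from rank 6 (miR-692) to rank 97 (miR-698), and the dotted line marks the median of -0.35.

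The remaining assays had late or sporadic product. miR-682 had a Ct of 34.1, 37.85, 36.5 and 36.0 in non-ischemic samples 1 to 4, of 35.1 in ischemic sample 2, and gave no product in ischemic samples 1 and 3. Its level was -19.41, -23.38, -21.89 and -21.18 in the non-ischemic samples and -20.65 in ischemic sample 2, which lay within the non-ischemic range. With no product kept at a Ct of 40, the mean was -21.46 ± 1.65 (SD, n = 4) against -23.84 ± 2.77 (SD, n = 3). The difference of -2.38 was the largest in size of the 30 assays, and the groups overlapped. It was left out of the main test, since only 1 sample had a Ct below 35, and entered only the alternatives with a looser filter. miR-680 gave a product in all 7 samples with a Ct from 35.4 to 37.8, and its mean level differed by 0.021 between groups. miR-696, known in mouse muscle to act on the metabolic regulator PGC-1alpha, gave a product in 6 of 7 samples, with a lowest Ct of 36.5 and none in ischemic sample 3.

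miR-721, which shares the seed of miR-130 and is known in the mouse from T helper 17 cells in myocarditis, gave a product in 3 of 4 non-ischemic samples and in 1 of 3 ischemic samples, with a lowest Ct of 36.3. The fold of 0.258 in the authors' deposited table thus rests on Ct values beyond 35 in every sample. miR-700 gave a product in 3 samples (lowest Ct 38.5) and miR-694 in 2 (37.8). miR-684, miR-701 and miR-702 did so in 1 sample each, with a Ct of 39.2, 38.2 and 39.35. The products of miR-684 and miR-701 were those of ischemic sample 3, and miR-702 that of ischemic sample 1.

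**Figure D5:**
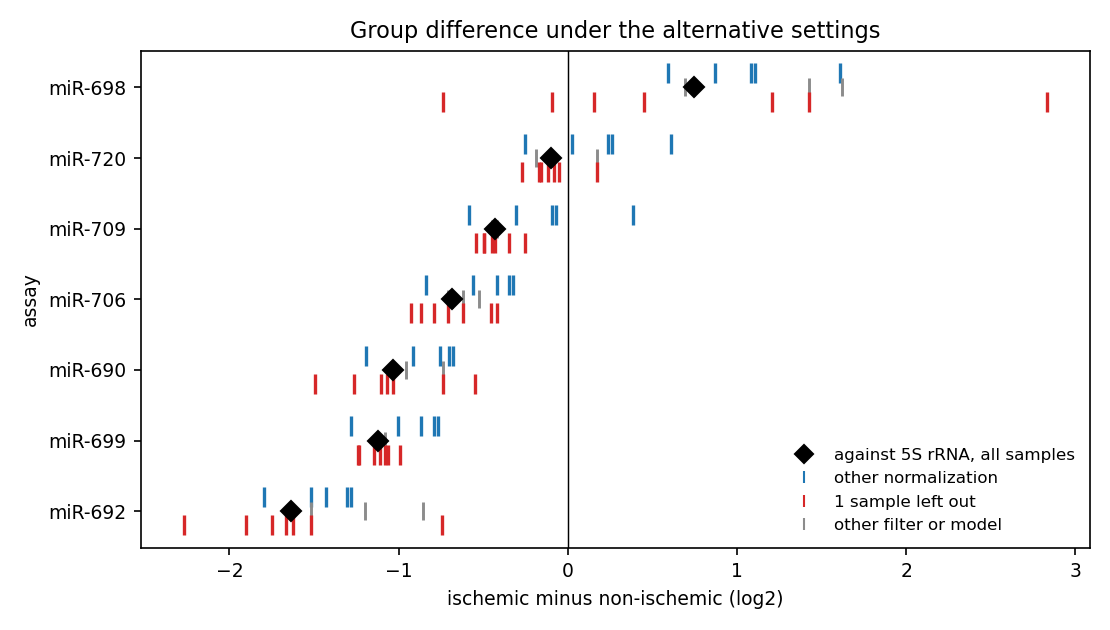
Difference in level, ischemic minus non-ischemic (log2, x axis), of the 7 tested assays (y axis) against 5S rRNA with all samples (diamonds), under other normalizations or raw Ct (blue), with each sample left out in turn (red) and under other filters or models (grey). miR-699 stays between -1.28 and -0.76 throughout, while miR-698 runs from -0.74 to 2.83.

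Over the 20 alternatives to this comparison, miR-699 kept a lower mean in all 20, between -1.28 and -0.76, with an adjusted p from 0.0685 to 0.559 in limma or in an unmoderated two-sample test per assay. Its unadjusted p was under 0.05 in 18 of them. miR-690 was lower in 20 of 20 (-1.49 to -0.55), and miR-692 and miR-706 in 19 of 19 each (-2.27 to -0.75 and -0.93 to -0.32). Groups that did not overlap were kept by miR-699 under global mean, quantile and snoRNA normalization and on raw Ct, but not under global median normalization. miR-692 and miR-709 kept them under none of these.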

How the data were processed

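Per the labels' protocols, 500 ng of RNA from a miRVana isolation was converted to cDNA with pooled looped primers and run on a 7900HT instrument in 384 wells. How the Ct threshold was set is not stated here. The authors deposited raw Ct values as a score in cycles, log2 levels against 5S rRNA and linear ratios made from these, and a table of group means of the ratio with their fold. The deposited log2 level equalled 5S rRNA Ct minus assay Ct within 0.0001 cycles for 315 of 316 assays, the exception being 18S, a control. Left unused were 7 raw columns that repeat the 5S rRNA Ct.

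Groups and numbers came from the sample titles. Of 316 assays, 306 were miRNAs, 9 controls and 1 a fly assay, left out. limma 3.58.1 in R 4.3.3 (lmFit, eBayes, two-sided, Benjamini-Hochberg over all tested miRNAs) was run on the deposited levels, with Ct 40 kept, and tested on simulated data. PCR levels carry no count, so precision is the spread between samples. The 30 assays, the marker miRNAs and the alternatives were chosen with earlier results of these data known. Each assay with a Ct below 35 in at least 1 sample was described in full, and the others by range or name. Sequences are from RefSeq, and overlaps use gene spans of the same assembly. Alternatives covered normalization, filter, late Ct, model, scale, each sample left out and the replicate number as a block.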

Additional observations from a re-analysis of the deposited data

How the results depend on the processing

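No tested assay of the set passed an adjusted p of 0.05 under any of the alternatives. Of all tested miRNAs 1 passed under global median and quantile normalization and in the unmoderated two-sample test, and 0 to 8 over samples left out, with 8 only without ischemic sample 3. The number of assays of the set with an unadjusted p under 0.05 was 2, and became 1 under global mean or quantile normalization, raw Ct, a Ct below 35 in all 7 samples, no filter, an intensity trend or the unmoderated test, and 0 under global median normalization. Over samples left out it ran from 1 to 3. With the replicate number as a block it was 0, and miR-720 turned to 0.17. The same-numbered samples did not deviate together (correlations of -0.08, -0.30 and -0.11, with 0 of 3 best with their own number). With so few samples, these values cannot settle whether the numbers pair samples. Against the main sign, miR-720 was at 0.24, 0.26, 0.61 and 0.025 under global mean, global median, quantile normalization and raw Ct, and ran from -0.27 to 0.17 over samples left out, miR-709 was at 0.39 under quantile normalization, and miR-698 ran from -0.74 to 2.83 over samples left out.

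Counts of groups that did not overlap, added after seeing the data, were 3 against 5S rRNA and fell to 1 under global mean, quantile, snoRNA and raw Ct and to 0 under global median, and ran from 3 to 4 over samples left out. With no filter 24 of the 30 had a lower mean, of which 14 are assays without product. Detection in at least 1 sample was 4 at a Ct below 32 or 30 and 16 for any product, and in all 7 samples 2 at a Ct below 30 and 7 for any product. At a Ct below 35 they were 8 and 4, with or without ischemic sample 3. When a sample was left out, the list of 103 tested miRNAs was held fixed and the filter was not applied again.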
